A study of Mus musculus with 8 samples.

Results

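The genes described here are the protein-coding genes that the annotation in the deposited expression table places in the KEGG pathway of aminoacyl-tRNA biosynthesis. There were 44 of them among the 18473 genes of the table, 14226 of which were protein-coding. They comprised 19 cytosolic synthetases, 2 synthetases that serve both the cytosol and the mitochondrion, 17 mitochondrial synthetases, 4 accessory enzymes of mitochondrial aminoacyl-tRNA and 2 enzymes that make selenocysteine on its tRNA. The table uses older symbols for many of them (Aars for Aars1, Tarsl2 for Tars3), which are kept here. The rule that picked them used the annotation and no measured value, though it was chosen with earlier results of these data known.

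RNA was sequenced from 8 mouse libraries, 4 titled EXO and 4 titled LPS, with replicates numbered 1 to 4 in each group. All 8 carry the labels of lung tissue and of MLE-12, an immortalised epithelial line from lung tumours of mice in which the surfactant protein C promoter drives a viral T antigen. The series text speaks instead of macrophages given ADSC-Exos, and the labels state no dose, no time and not whether the EXO libraries also received LPS. Nothing states that replicates came from separate cultures, so p-values measure the spread between these libraries, which may be technical.

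The label was checked against marker genes. Of 9 epithelial markers, Ocln and Elf3 were in the table, and their summed level was 0 to 0.0133 FPKM in EXO and 0 to 0.0233 FPKM in LPS libraries; the other 7 epithelial markers were not analysed here. FPKM scales fragments to the length of the gene and the depth of the library, so it allows levels to be compared between genes. Of 6 markers of alveolar type 2 cells, the lung cells that MLE-12 models, Lamp3 and Napsa were in the table. Lamp3 was at most 0.137 FPKM in any library. Napsa, a protease that processes surfactant protein, was at 29.5, 34.5, 30.4 and 35.7 FPKM in EXO and 75.3, 54.35, 52.4 and 48.05 in LPS libraries, and it was lower in EXO (log2 fold change -0.79, limma adjusted p = 2.47e-04). All 12 macrophage markers were in the table, with summed levels of 5780 to 7350 FPKM in EXO and 10400 to 21700 FPKM in LPS libraries. In the 11 with a test, 10 fell in EXO and 0 rose (limma, adjusted p under 0.05), with a median log2 fold change of -1.01. The shares over all genes tested were 24.7% lower and 33.7% higher. Ocln, Elf3 and Lamp3 near 0 and the high macrophage markers went against the epithelial label, whereas the level of Napsa did not, and the label was not settled by these genes. The fall of macrophage markers and of Napsa moved with the group in the comparison of EXO with LPS, and its part in the results was not tested. In bulk RNA a change in the number of cells of a type and a change in RNA per cell cannot be told apart.

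Aminoacyl-tRNA synthetases attach each amino acid to its matching tRNA, the step that sets the reading of the genetic code. Cytosol and mitochondrion use separate enzymes, nearly all from separate nuclear genes, whereas Gars and Kars each supply both compartments from a single gene. In the cytosol several synthetases sit in a multi-synthetase complex held by the scaffold proteins Aimp1, Aimp2 and Eef1e1. Many cytosolic synthetase genes are known targets of Atf4, the transcription factor of the amino acid response, which binds the element TGATGCAA. Wars1, the tryptophanyl enzyme, is known in human cells as an interferon-inducible gene.

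Promoter sequence was examined for that element and for CACGTG, the E-box bound by Myc family factors. A RefSeq promoter window was matched for 32 of the 44 genes, and the 250 bases upstream of the start site were read on both strands (RefSeq, GRCm38.p6, a build other than the GRCm39 of the authors' alignment). TGATGCAA or its reverse complement TTGCATCA was present in 2 of 32 genes (6.25%), against 248 of 27025 genes with a window (0.918%). CACGTG was present in 3 of 32 (9.38%), against 1854 of 27025 (6.86%). The 4 windows below are shown because they hold these letters, 5′ to 3′ on the strand of the gene, with the matches in capitals. They lie at chr8:111033592-111033841 (plus strand, Aars), chr15:11399659-11399908 (minus strand, Tars), chr13:49681880-49682129 (plus strand, Iars) and chr1:78488898-78489147 (minus strand, Farsb).
Aars: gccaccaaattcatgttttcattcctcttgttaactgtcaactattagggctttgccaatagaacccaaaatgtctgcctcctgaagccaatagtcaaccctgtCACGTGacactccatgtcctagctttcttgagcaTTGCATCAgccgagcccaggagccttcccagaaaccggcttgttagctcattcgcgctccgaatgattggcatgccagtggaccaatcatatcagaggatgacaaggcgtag
Tars: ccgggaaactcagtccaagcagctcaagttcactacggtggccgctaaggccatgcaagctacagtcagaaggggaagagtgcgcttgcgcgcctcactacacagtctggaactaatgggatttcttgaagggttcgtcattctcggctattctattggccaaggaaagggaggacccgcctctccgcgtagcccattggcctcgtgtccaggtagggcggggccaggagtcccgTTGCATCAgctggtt
Iars: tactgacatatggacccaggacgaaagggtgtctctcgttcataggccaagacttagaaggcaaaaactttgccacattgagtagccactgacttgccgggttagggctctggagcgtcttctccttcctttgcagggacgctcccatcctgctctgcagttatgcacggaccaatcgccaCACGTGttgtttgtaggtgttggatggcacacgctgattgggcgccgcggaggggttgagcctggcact
Farsb: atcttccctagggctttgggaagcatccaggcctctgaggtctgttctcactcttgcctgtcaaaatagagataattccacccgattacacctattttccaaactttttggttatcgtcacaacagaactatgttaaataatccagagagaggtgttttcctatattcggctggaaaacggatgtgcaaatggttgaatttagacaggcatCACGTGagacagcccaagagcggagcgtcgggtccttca
Aars, the alanyl enzyme, held both motifs without overlap, the Atf4-type element beginning 112 bases and the E-box 146 bases upstream of the start. In Tars, the cytosolic threonyl enzyme, the element began 15 bases upstream, and the E-box began 69 bases upstream in Iars and 39 in Farsb. These are matches of letters and show no binding.

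All 44 genes were detected in all libraries, with 128 to 27533 fragments per gene and library, from totals of 37061712 to 40640977 fragments recovered from the FPKM values. The 21 genes that serve the cytosol were the abundant ones, with a median level of 62.8 FPKM, against 3.87 FPKM for the 17 mitochondrial synthetases. Nars, the asparaginyl enzyme, stood highest at a mean of 187 FPKM over the 8 libraries, followed by Rars (148), Gars (136), Kars (112) and Dars (104). Nars2, the mitochondrial asparaginyl enzyme, stood lowest at 0.957 FPKM. The Spearman rho between level and change on the log2(FPKM + 1) scale was 0.007 across the 44 genes, which share the same 8 libraries. This scale understates the change of genes at low FPKM, so the value does not show whether relative change varied with level.

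In the comparison of EXO with LPS, 34 of the 44 genes were higher in EXO, 0 were lower and 10 did not pass the test (limma on log2(FPKM + 1), Benjamini-Hochberg adjusted p under 0.05 over the 9812 genes tested). Over all genes tested, 33.7% were higher and 24.7% were lower. The median log2 fold change was 0.55 over the 44 genes and 0.09 over all genes tested, and 43 of the 44 values were above 0. In 24 of the 44 genes every EXO library lay above every LPS library, against 29.1% of genes tested, and in the other 20 the groups overlapped. Ears2 and Nars2 passed the filter on low values through the EXO libraries alone; without them 32 of 42 were higher. The plot of changes orders the genes by size.

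**Figure D1:**
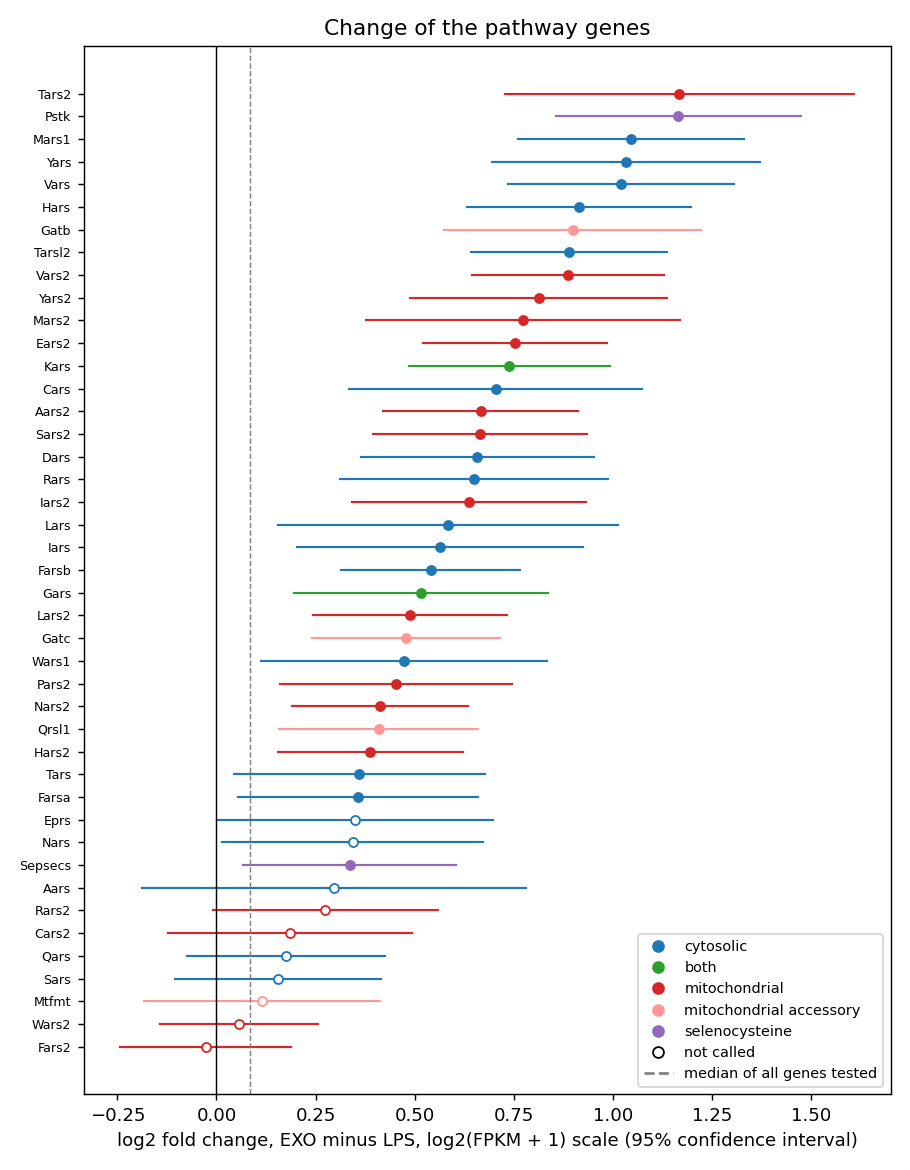
Log2 fold change (x axis, EXO minus LPS, taken from log2(FPKM + 1)) with its 95% confidence interval for the pathway genes (y axis), coloured by compartment, filled where the gene was called. The filled points run from 0.34 to 1.17, all to the right of the dashed median of all genes tested (0.09), and Fars2 alone lies left of 0.

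The 3 largest cytosolic changes were in Mars1, Yars and Vars, which charge methionine, tyrosine and valine. Mars1, a member of the multi-synthetase complex, measured 23.2, 27.7, 28.3 and 27.4 FPKM in EXO replicates 1 to 4 and 12.15, 10.03, 12.05 and 15.85 in LPS replicates 1 to 4. The groups did not overlap, and LPS replicate 4 was the nearest to EXO. Its level was 26.7 ± 2.32 against 12.5 ± 2.43 FPKM (SD, n = 4 each), a log2 fold change of 1.05 (SE 0.13, limma adjusted p = 1.61e-05).

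Yars measured 54.15, 55.6, 66.2 and 66.1 FPKM in EXO and 24.15, 23.9, 29.6 and 40.85 in LPS libraries. The groups were again separate, with LPS replicate 4 above the other LPS libraries. The log2 fold change was 1.03 (SE 0.16, limma adjusted p = 7.95e-05). Vars measured 23.8, 25.6, 28.3 and 33.4 FPKM in EXO and 14.4, 10.7, 12.9 and 14.8 in LPS libraries. Here LPS replicate 4 lay close to LPS replicate 1, and the log2 fold change was 1.02 (SE 0.13, limma adjusted p = 1.97e-05).

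The other called cytosolic genes followed at 0.36 to 0.91. Hars, the histidyl enzyme, was at 92.0 ± 4.70 FPKM in EXO and 49.0 ± 9.73 in LPS libraries, with no overlap (log2 fold change 0.91). Tarsl2, a second threonyl synthetase gene of the cytosol, was at 5.25 ± 0.182 against 2.40 ± 0.449 FPKM (SD, n = 4 each, log2 fold change 0.89). It was the cytosolic gene of lowest level, and LPS replicate 4 had its lowest value, at 2.04 FPKM, in contrast to most of the genes described here. Farsb, the beta chain of the phenylalanyl enzyme, was at 75.3 ± 6.34 against 51.4 ± 2.21 FPKM with no overlap (log2 fold change 0.54). Its partner Farsa, the alpha chain, was at 37.0 ± 4.60 against 28.9 ± 5.74 FPKM, with overlapping groups and a log2 fold change of 0.36 (limma adjusted p = 0.0421). The ratio of Farsa to Farsb was 0.493 ± 0.066 in EXO and 0.56 ± 0.0886 in LPS libraries (exact two-sided permutation test, p = 0.371, n = 4 each).

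Of the 8 members of the multi-synthetase complex, 6 were higher and 2 did not pass the test, with a median log2 fold change of 0.62. The 13 other genes serving the cytosol gave 10 higher and 3 not called, with a median of 0.52. Kars, the lysyl enzyme shared with the mitochondrion, was at 139.6 ± 8.03 against 83.7 ± 12.0 FPKM with no overlap (log2 fold change 0.74). Dars, the aspartyl enzyme, also showed no overlap, at 127 ± 12.4 against 81.0 ± 16.6 FPKM (log2 fold change 0.66). Gars, the glycyl enzyme shared with the mitochondrion but outside the complex, was at 159 ± 16.4 against 113 ± 26.1 FPKM, and Cars, the cysteinyl enzyme, at 25.2 ± 3.04 against 15.5 ± 4.58 FPKM; both overlapped between the groups (log2 fold changes 0.52 and 0.70). In Rars, Lars and Iars, which charge arginine, leucine and isoleucine, the groups overlapped through LPS replicate 4, and the log2 fold changes were 0.65, 0.58 and 0.56. Lars measured 42.7, 58.4, 57.6 and 55.8 FPKM in EXO and 26.5, 30.25, 34.0 and 55.9 in LPS libraries, so that LPS replicate 4 lay inside the EXO range; its call (limma adjusted p = 0.0225) did not survive leaving out any single library other than EXO replicate 1 and LPS replicate 4 (adjusted p 0.0528 to 0.0662).

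Eprs and Qars were the complex members that did not pass. Eprs, which charges both glutamate and proline, measured 72.6, 107, 100.3 and 97.1 FPKM in EXO and 59.5, 66.2, 72.05 and 99.97 in LPS libraries. EXO replicate 1 was low and LPS replicate 4 high in it, and the log2 fold change was 0.35 (SE 0.16, limma adjusted p = 0.0795). It passed without EXO replicate 1 (adjusted p = 0.0282) or without LPS replicate 4 (0.00337). Qars, the glutaminyl enzyme, was at 76.1 ± 8.65 against 67.1 ± 6.33 FPKM, a log2 fold change of 0.18 with a 95% interval of -0.07 to 0.43.

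The lowest called cytosolic gene besides Farsa was Tars, at 63.1, 70.4, 77.01 and 70.1 FPKM in EXO and 45.4, 47.0, 54.1 and 75.2 in LPS libraries. LPS replicate 4 lay above 3 of the 4 EXO libraries, and the log2 fold change was 0.36 (SE 0.15, limma adjusted p = 0.0482). The call of Tars was lost when any single library other than LPS replicate 4 was left out, with adjusted p of 0.0535 to 0.14. That of Farsa was lost without EXO replicate 1, 3 or 4 or LPS replicate 1, 2 or 3 (0.0621 to 0.134).

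Wars1 measured 33.05, 41.65, 40.5 and 36.4 FPKM in EXO and 21.45, 21.7, 29.3 and 38.5 in LPS libraries. LPS replicate 4 lay within the EXO range, and the other LPS libraries lay below it. The log2 fold change was 0.47 (SE 0.17, limma adjusted p = 0.0263), and the call was lost without EXO replicate 2, EXO replicate 3, LPS replicate 1 or LPS replicate 2 (adjusted p 0.0638 to 0.088).

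**Figure D2:**
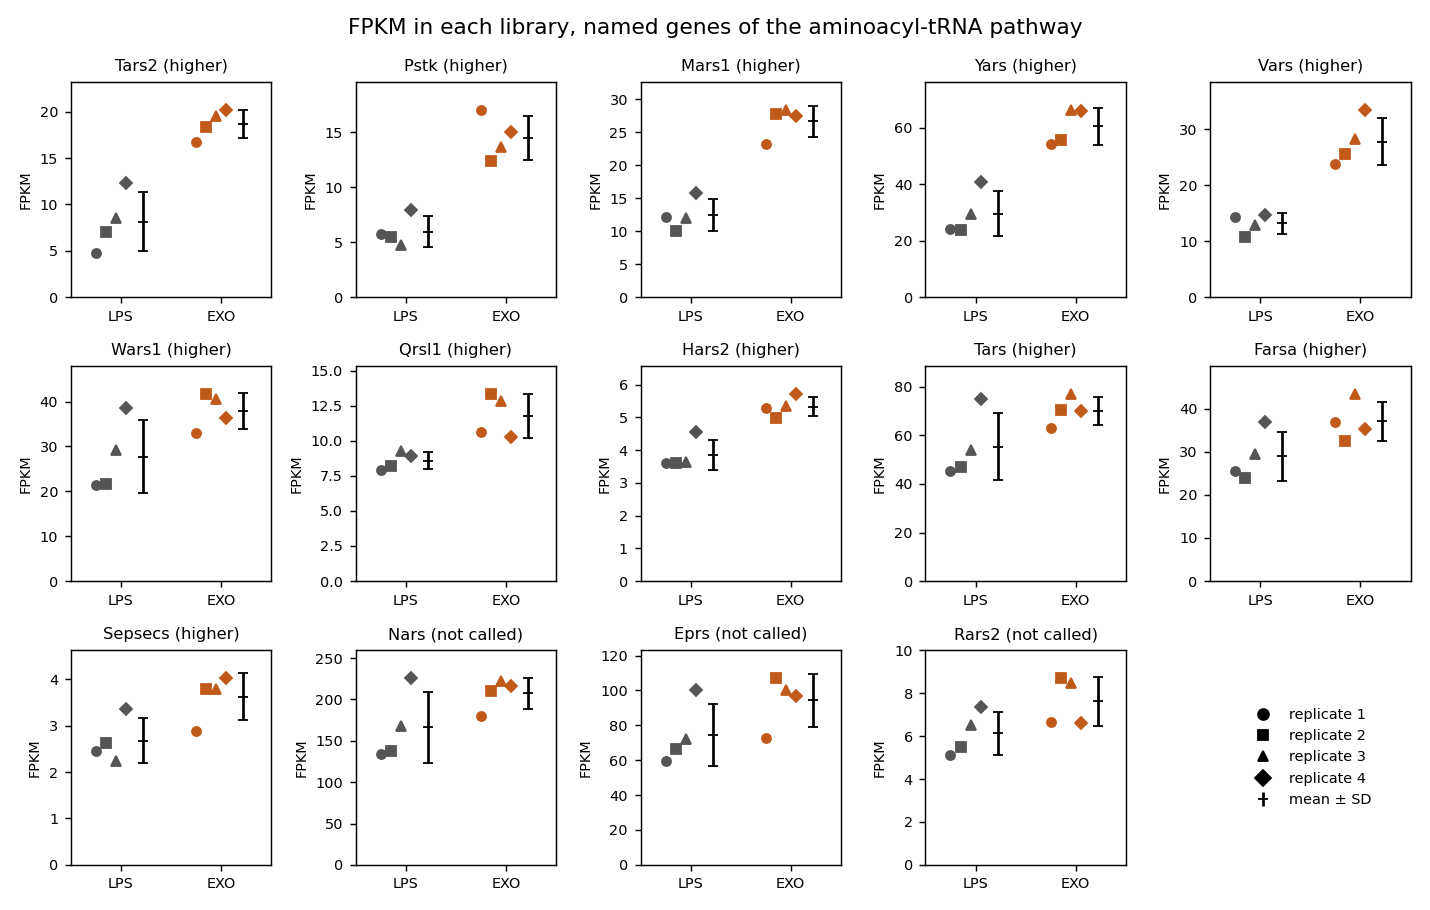
FPKM (y axis, from 0) in each LPS and EXO library for the 5 called genes with the largest change, Wars1, the 5 called genes with the smallest change and the 3 uncalled genes nearest the threshold; symbols mark the replicate and bars the mean ± SD. In Tars the LPS replicate 4 value of 75.2 FPKM lies among the EXO values of 63.1 to 77.01, whereas in Pstk and Vars the groups stay apart.

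Of the 17 mitochondrial synthetases 13 were higher and 4 did not pass, with a median log2 fold change of 0.64. In 12 of the 17 every EXO library lay above every LPS library; for the 21 genes serving the cytosol this held in 8, and over all genes tested in 29.1%. The 12 include Ears2 and Nars2, which passed the filter through EXO alone. The summed level of the 17 was 186.0, 184.6, 196.4 and 183.8 FPKM in EXO and 103.7, 102.0, 119.5 and 138.4 in LPS libraries, a ratio of means of 1.62. These sums did not overlap, and the EXO libraries lay close together. The summed level of the 21 genes serving the cytosol was 1504, 1730, 1779 and 1716 FPKM in EXO and 993.2, 1016, 1189 and 1517 in LPS libraries, a ratio of means of 1.43. Those sums overlapped, since LPS replicate 4 stood above EXO replicate 1.

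Tars2, the mitochondrial threonyl enzyme, showed the largest log2 fold change of the 44. It measured 16.8, 18.4, 19.5 and 20.15 FPKM in EXO and 4.735, 7.04, 8.58 and 12.3 in LPS libraries. The groups did not overlap, although the LPS libraries spread over a wide range. The log2 fold change was 1.17 (SE 0.20, 95% interval 0.73 to 1.61, limma adjusted p = 3.49e-04).

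Vars2 and Yars2, which charge mitochondrial tRNA with valine and tyrosine, were at 3.86 ± 0.293 against 1.64 ± 0.286 FPKM and at 22.0 ± 4.09 against 12.0 ± 2.08 FPKM (SD, n = 4 each), with log2 fold changes of 0.89 and 0.81. Both were separate between the groups. Mars2, for methionine, was at 6.69 ± 1.70 against 3.51 ± 1.11 FPKM and was the called mitochondrial gene whose groups overlapped (log2 fold change 0.77). On the log2(FPKM + 1) scale the change of a low gene is understated: Ears2, the mitochondrial glutamyl enzyme, was at 1.73 ± 0.231 against 0.619 ± 0.148 FPKM, a ratio of means of 2.79 that was the largest of the 44, with a log2 fold change of 0.75.

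The other called mitochondrial genes were Aars2, Sars2, Iars2, Lars2, Pars2, Nars2 and Hars2, at log2 fold changes of 0.39 to 0.67. Lars2, the leucyl enzyme, was the most abundant mitochondrial synthetase, at 57.7 ± 5.64 against 40.8 ± 3.54 FPKM. Hars2, the histidyl enzyme, had the smallest called change of this group; it measured 5.29, 4.98, 5.35 and 5.71 FPKM in EXO and 3.62, 3.60, 3.64 and 4.56 in LPS libraries. The groups were separate (log2 fold change 0.39, SE 0.11, limma adjusted p = 0.00706).

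Rars2, Cars2, Wars2 and Fars2 did not pass, with log2 fold changes of 0.28, 0.19, 0.06 and -0.03. Rars2, the arginyl enzyme, was at 7.62 ± 1.13 against 6.13 ± 1.01 FPKM (limma adjusted p = 0.0889, 0.0235 without LPS replicate 4). Wars2, the tryptophanyl enzyme, was at 1.396 ± 0.0783 against 1.30 ± 0.024 FPKM. Its 95% interval of -0.14 to 0.26 lay below the median of the 44. At so low a level the log2(FPKM + 1) scale understates a change, so Wars2 and that median do not compare on equal terms. Fars2, the phenylalanyl enzyme, was at 1.57 ± 0.193 against 1.62 ± 0.0994 FPKM, with an interval of -0.24 to 0.19. The lengths implied by their FPKM steps were 8027 bases for Wars2 and 12531 bases for Fars2, within a range of 1497 (Pstk) to 15488 (Nars2) over the 44 genes.

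Where an amino acid has separate cytosolic and mitochondrial enzymes, the ratio of the genes within each library compares their responses. There were 18 such pairs, with Eprs and Fars2 each in 2 of them. The cytosolic gene had the higher FPKM in both groups in 17 pairs, the exception being leucine, where Lars stood at 0.929 of Lars2 in EXO and 0.898 in LPS libraries. On the log2(FPKM + 1) scale the ratio differed between the groups without overlap in 5 pairs, each with p = 0.029 in an exact two-sided permutation test (n = 4 each), the smallest p that 4 against 4 libraries allow. After Benjamini-Hochberg adjustment over the 18 pairs each of these was 0.103 (exact permutation test), so none passed the correction.

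In 2 of the 5 pairs the cytosolic share was lower in EXO. The FPKM ratio of Tars to Tars2 was 3.76, 3.83, 3.95 and 3.48 in EXO and 9.58, 6.67, 6.30 and 6.13 in LPS libraries, and that of Sars to Sars2 was 20.1, 24.2, 17.3 and 20.8 against 30.1, 31.0, 40.5 and 31.8. The threonine ratio was thus set apart in all 4 libraries of each group, with a difference of -0.81 on the log2 scale; for serine it was -0.51. In the other 3 the cytosolic share was higher in EXO. The ratio of Farsb to Fars2 was 49.0, 44.5, 55.9 and 43.6 in EXO and 32.2, 31.8, 29.7 and 33.6 in LPS libraries (log2 difference 0.57). Histidine and arginine gave log2 differences of 0.53 and 0.37, with FPKM ratios of means of 17.3 against 12.7 for Hars to Hars2 and 23.6 against 18.9 for Rars to Rars2. With a pseudocount of 0.1 in place of 1, 8 pairs reached p = 0.029 in the exact permutation test (smallest adjusted p 0.064), the glutamate and asparagine pairs with a lower cytosolic share in EXO among them. The mitochondrial genes of these pairs, Ears2 and Nars2, passed the filter on low values only through EXO, the group in which they were higher, so these results give no support to a difference.

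**Figure D3:**
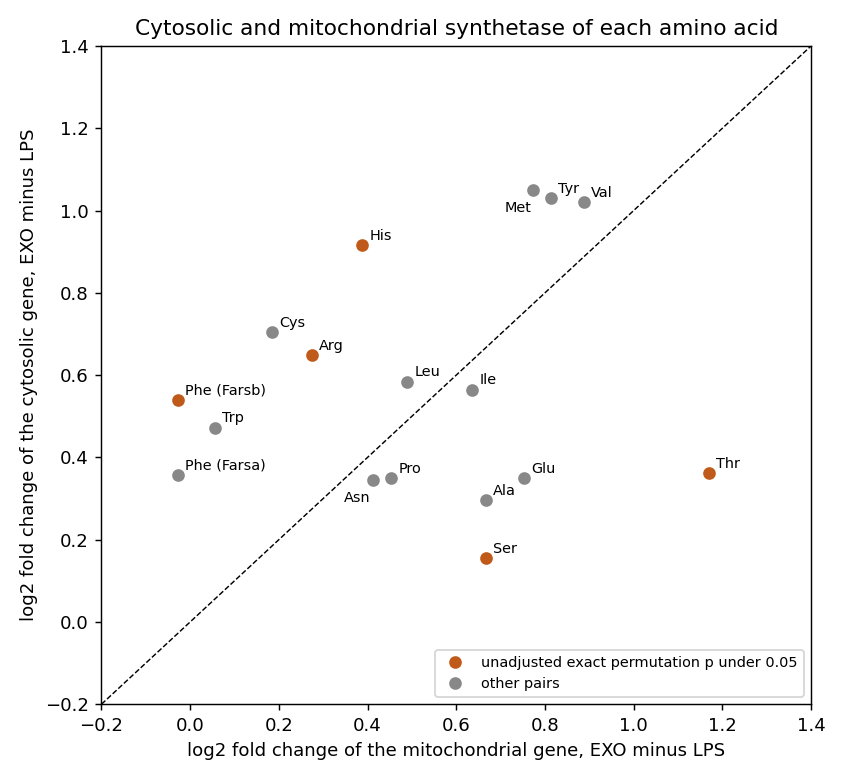
Log2 fold change of the cytosolic gene (y axis) against that of the mitochondrial gene of the same amino acid (x axis), both EXO minus LPS and from log2(FPKM + 1), with the line of equal change dashed. Threonine and serine lie below the line and histidine, arginine and phenylalanine (Farsb) above it among the 5 pairs with an unadjusted exact permutation p of 0.029.

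The accessory enzymes act on tRNA already charged in the mitochondrion. Gatb, Gatc and Qrsl1 form the amidotransferase that turns glutamate into glutamine on its tRNA, and Mtfmt formylates the initiator methionine. Gatb was at 6.48 ± 0.756 against 3.08 ± 0.961 FPKM (log2 fold change 0.90), Gatc at 20.1 ± 1.54 against 14.2 ± 1.32 FPKM (0.48) and Qrsl1 at 11.8 ± 1.55 against 8.58 ± 0.615 FPKM (0.41), all called and without overlap. Qrsl1 measured 10.6, 13.3, 12.85 and 10.3 FPKM in EXO and 7.94, 8.19, 9.27 and 8.90 in LPS libraries (SE 0.12, limma adjusted p = 0.00801). The ratio of Gatb to Qrsl1 was 0.564 ± 0.136 in EXO and 0.356 ± 0.0941 in LPS libraries, which did not pass an exact two-sided permutation test (p = 0.086, n = 4 each). Mtfmt was at 11.3 ± 1.45 against 10.4 ± 1.87 FPKM and did not pass (log2 fold change 0.11, 95% interval -0.18 to 0.41).

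Pstk and Sepsecs act in sequence on serine carried by the selenocysteine tRNA, Pstk adding a phosphate and Sepsecs replacing it with selenium. Pstk measured 17.0, 12.3, 13.6 and 15.0 FPKM in EXO and 5.715, 5.48, 4.71 and 7.92 in LPS libraries. The groups were far apart, at a log2 fold change of 1.16 (SE 0.14, limma adjusted p = 1.26e-05). In the GENCODE M21 annotation 58.8% of the exon bases of Pstk overlap exons of Ikzf5 on the opposite strand. That annotation gives Pstk 7914 exon bases, whereas the length implied by its FPKM steps was 1497 bases. The overlap within the gene model that was counted is therefore not known. The sources used do not state whether the authors' counting used strand, so reads of these 2 genes may not be told apart. Sepsecs measured 2.90, 3.79, 3.80 and 4.03 FPKM in EXO and 2.455, 2.62, 2.25 and 3.37 in LPS libraries. Its groups overlapped (log2 fold change 0.34, SE 0.13, limma adjusted p = 0.0323), and the call was lost without EXO replicate 2, 3 or 4 or LPS replicate 1, 2 or 3 (adjusted p 0.0642 to 0.106). Overlaps with another protein-coding gene over more than 10% of exon bases were also annotated for Iars2 (22.9%, Rab3gap2) and Aars (14.3%, Exosc6). For these genes too the annotated exon bases (8885 and 9282) exceeded the lengths implied by FPKM (6408 and 6346). Below that cut, Hars and Hars2 share 195 exon bases on opposite strands (7.97% of Hars and 4.56% of Hars2). Hars had a mean of 70.5 FPKM and Hars2 of 4.59. Whether reads of Hars were counted for Hars2, and so entered its change and the histidine ratio, was not tested.

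Among the 10 genes that did not pass, Nars was nearest to the threshold. It measured 179.9, 210.8, 222.4 and 216.1 FPKM in EXO and 133.8, 137.4, 168.3 and 225.9 in LPS libraries. LPS replicate 4 was the highest of all 8 libraries (log2 fold change 0.34, SE 0.15, limma adjusted p = 0.0685), and without it the adjusted p was 0.00153. In Aars, LPS replicate 4 was second to EXO replicate 2, with 25.4, 43.0, 31.6 and 32.8 FPKM in EXO and 19.9, 20.5, 28.1 and 41.9 in LPS libraries (log2 fold change 0.30, limma adjusted p = 0.271, 0.0144 without LPS replicate 4). Sars, the cytosolic seryl enzyme, was at 101.4 ± 10.04 against 91.2 ± 12.0 FPKM (log2 fold change 0.16, 95% interval -0.10 to 0.42).

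LPS replicate 4 stood apart from the other LPS libraries across these genes. It was the highest LPS library in 36 of the 44 genes, and in 49.8% of all genes tested. Its median excess over the other LPS libraries was 0.34 on the log2 scale for the 44 genes and 0.13 for all genes tested. The excess was 0.55 for the 21 genes serving the cytosol and 0.28 for the 17 mitochondrial synthetases, whereas the EXO libraries exceeded LPS replicates 1 to 3 by a median of 0.74 and 0.73. The largest excesses were in Lars (0.87), Aars (0.86) and Tars2 (0.80), and those in Farsb (0.10), Qars (-0.03) and Tarsl2 (-0.20) were among the smallest; these were chosen after their values were seen. LPS replicate 4 reached the lowest EXO value or more in 18 of the 44 genes. Without it, every EXO library lay above the other LPS libraries in 38 of the 44 genes, against 37.0% of genes tested. In the fit without it, 38 of the 44 were called higher, with a median log2 fold change of 0.69. That fit called 3659 of all 9812 genes tested higher, with a median of 0.11, against 3310 and 0.09 with LPS replicate 4 kept. The summed macrophage markers, of which Lyz2 made up the most, were also nearest to EXO in this library. They stood at 10400 FPKM against 14300 to 21700 in the other LPS libraries. Single markers differed. Lyz2, Csf1r, Cd68, Fcer1g, Tyrobp, Spi1, Cd14 and Mertk were lowest of the LPS libraries in replicate 4. Adgre1, Ptprc and Itgam were second highest there, and Fcgr1 was highest, at 83.7 FPKM. The part of these markers in the result was not tested.

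EXO replicate 1 was the lowest EXO library in 24 of the 44 genes. The first principal component of all genes tested held 80.4% of the variance and separated the groups, with LPS replicate 4 at 23.9 and the other LPS libraries at 35.4 to 42.75. The heat map of the genes by library shows both patterns.

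**Figure D4:**
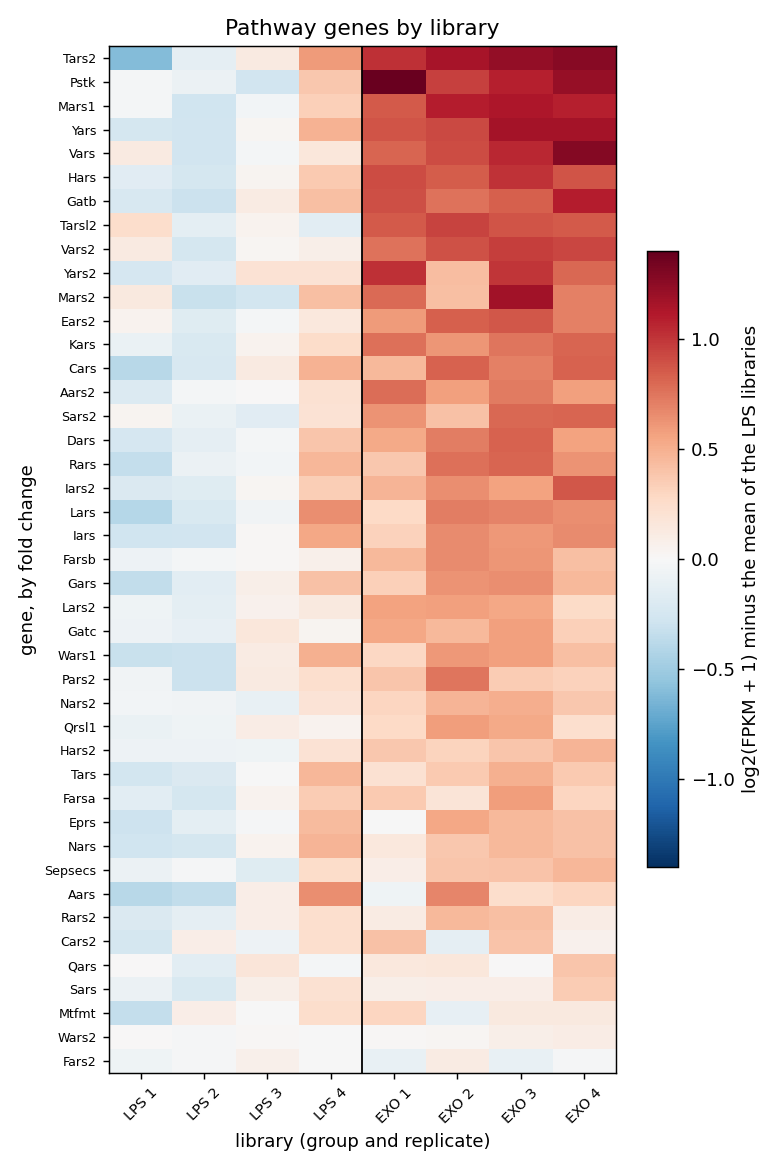
Log2(FPKM + 1) of the pathway genes (rows, ordered by fold change) in each library (columns) minus the mean of the LPS libraries, as colour. The EXO columns are red in most rows, and the LPS replicate 4 column is redder than the other LPS columns in most rows.

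Neighbouring steps of tRNA use were read from the same fit, and their counts stand beside 33.7% higher and 24.7% lower over all genes tested, with no test of the lists against it. The 3 scaffold genes of the multi-synthetase complex were all higher, with a median log2 fold change of 0.95. Eef1e1 was at 149 ± 19.6 against 72.1 ± 13.7 FPKM, Aimp2 at 48.7 ± 7.34 against 24.7 ± 3.34 and Aimp1 at 101.2 ± 1.70 against 78.5 ± 4.75 (SD, n = 4 each). Of 5 genes of editing and quality control, which remove wrongly attached amino acids or act beside such enzymes, 3 were higher and 2 lower. Aarsd1, a free-standing alanyl editing enzyme, was at 37.4 ± 2.07 against 14.3 ± 1.83 FPKM, and the D-aminoacyl-tRNA deacylases Dtd1 and Dtd2 were at 35.7 ± 2.38 against 15.8 ± 3.11 and 8.74 ± 0.765 against 4.79 ± 0.463 FPKM. Prorsd1 was lower in EXO, at 12.7 ± 2.16 against 19.6 ± 2.19 FPKM, as was Ankrd16, at 1.09 ± 0.301 against 2.21 ± 0.569 FPKM.

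Charged tRNA is then handed to the ribosome. All 4 mitochondrial factors of this step were higher, with a median log2 fold change of 0.83. The elongation factors Tsfm and Tufm were at 46.5 ± 5.89 against 18.2 ± 3.60 and 93.8 ± 5.003 against 47.7 ± 9.48 FPKM, and Gfm1 and Gfm2 had log2 fold changes of 0.69 and 0.50. Of 5 cytosolic factors tested out of 6 listed, 2 were higher, 1 was lower and 2 did not pass, with a median of 0.23, shares near those over all genes tested. Eef1d and Eef1g, subunits of the exchange factor that reloads Eef1a, were higher, at log2 fold changes of 0.82 and 0.30, and Eef1b2, another subunit, was lower, at -0.29. Eef2, the translocation factor, was at 1143 ± 168 against 972 ± 136 FPKM and did not pass (limma adjusted p = 0.152).

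Of 5 genes that place selenocysteine into proteins, 3 were higher and 2 did not pass, with a median of 0.42. Eefsec, Trnau1ap and Sephs1 had log2 fold changes of 0.65, 0.44 and 0.42, and Sephs2, which makes the selenium donor, was at 82.9 ± 10.8 against 97.1 ± 8.60 FPKM (limma adjusted p = 0.117). Among 22 tested genes of tRNA maturation and export, 15 were higher, 0 lower and 7 not called, against 33.7% higher and 24.7% lower over all genes tested, with a median of 0.50 (0.09 over all genes tested). Rpp30, Rpp40 and Pop5, subunits of RNase P, which trims the leading end of tRNA, had log2 fold changes of 1.22, 1.35 and 1.14, and Elac2, which cuts the trailing end, had 1.27. RNA polymerase III, which transcribes tRNA genes, gave the same counts over its 22 genes (15 higher, 0 lower, 7 not called; median 0.47). Gtf3a, Polr3e and Gtf3c1 had log2 fold changes of 0.89, 0.67 and 0.56.

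Of the 27 genes of the amino acid response, 12 were higher, 4 lower and 11 uncalled, against 33.7% higher and 24.7% lower over all genes tested. The median log2 fold change was 0.36 (0.09 over all genes tested), and the list was not tested against all genes. Atf5, a transcription factor of this response, was at 16.7 ± 3.37 against 61.05 ± 12.2 FPKM (log2 fold change -1.81), and Atf3 was at 70.1 ± 17.0 against 129 ± 19.0 FPKM (-0.89). Shmt2, a mitochondrial enzyme of serine and folate metabolism, was at 194 ± 11.6 against 74.8 ± 25.7 FPKM (1.42), and Eif4ebp1, a repressor of translation initiation, at 184.9 ± 19.9 against 100.2 ± 21.4 FPKM (0.89). Atf4 itself, chosen after its values were seen, was at 326.4, 320.1, 334.6 and 351.0 FPKM in EXO and 179.6, 196.9, 236.7 and 359.7 in LPS libraries. Its highest value was in LPS replicate 4, as for Nars, and its log2 fold change was 0.50 (limma adjusted p = 0.0246).

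**Figure D5:**
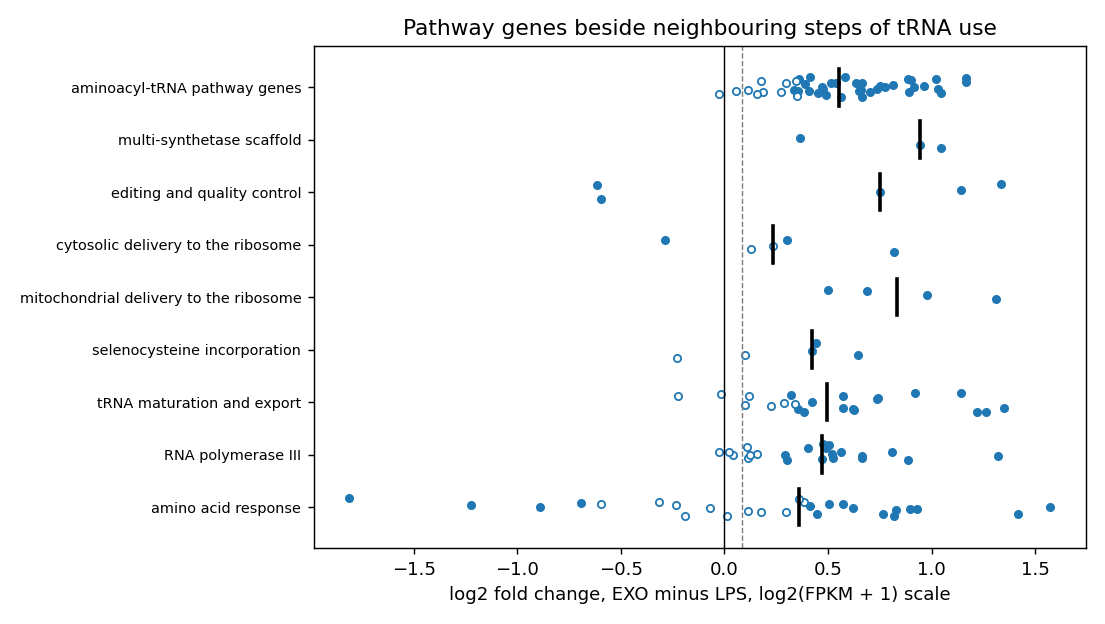
Log2 fold change (x axis, EXO minus LPS, taken from log2(FPKM + 1)) of each tested gene in the 44-gene pathway and in the neighbouring lists (y axis); filled points were called, black bars mark list medians and the dashed line the median of all genes tested (0.09). The medians run from 0.23 (cytosolic delivery) to 0.95 (scaffold), and the amino acid response spreads from -1.81 to 1.57.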

How the data were processed

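TRIzol-extracted RNA was made into libraries with a VAHTS Universal V6 kit, per the labels' protocols, and the submitters' processing notes name HISAT2, an aligner, and the build GRCm39 (mm39). How fragments were counted, with which strand setting and annotation release, is not stated there. What the authors deposited is 1 table of FPKM values for 8 libraries; its header names no unit, and FPKM was inferred from the values. Whole fragments were recovered from the FPKM steps for 17645 of 17645 detected genes (100%, within 0.001 of a whole number); 828 genes were at 0 in all libraries.

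Genes reaching 1 FPKM in 4 or more libraries (9812) were tested with limma 3.58.1 (R 4.3.3) on log2(FPKM + 1), with trend and robust moderation, two-sided, Benjamini-Hochberg adjusted over all of them at 0.05; the script was tested on simulated data. Ratios were tested by exact permutation (scipy 1.17.1, Python 3.11.15). Alternatives were a pseudocount of 0.1, no filter, median-of-ratios rescaling, a filter on mean FPKM (5 or more), voom on recovered fragments, a replicate block and leaving libraries out.

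Named genes were the 5 largest and 5 smallest called changes, Wars1, the 3 uncalled genes nearest the threshold and up to 4 genes of smallest p per other list; further pathway genes illustrate their classes and were chosen after their values were seen. The members and lists were chosen with earlier results of these data known. Protein sequences were not used here. Some genes are not reported here by name or labelled in the figures, though they are in the counts, sums and medians.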

Additional observations from a re-analysis of the deposited data

Results flagged for a closer look

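Among the 88 sets of 4 libraries formed by the 44 genes and both groups, 6 held a library whose gap to the nearest other value relative to the range of its group exceeded Dixon's 95% limit, and chance alone gives about 1 in 20. In the EXO group, Iars was low in replicate 1 at 44.2 FPKM (the others 54.2 to 56.2), as was Lars at 42.7 (55.8 to 58.4). In EXO replicate 4, Lars2 was low at 49.3 FPKM (59.6 to 61.3) and Sars was high at 116 (96.1 to 96.6). Pars2 was high in EXO replicate 2 at 3.6 FPKM (2.44 to 2.58). In the LPS group, Hars2 was high in replicate 4 at 4.56 FPKM (3.6 to 3.64).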

How the results depend on the processing

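Of the 44 genes, 34 were called higher with a pseudocount of 0.1 and with voom, 31 after median-of-ratios rescaling and 29 with no filter. The number was 24 of 31 with a mean FPKM of at least 5, and 29 to 38 when 1 library was left out. None of the 44 was called lower in any of these. Over all genes tested, 3310 of 9812 were higher in the main fit, 3295 with a pseudocount of 0.1 and 3341 with voom. Rescaling gave 2891 higher and 2925 lower. No filter gave 3338 of 17645 higher, and a mean FPKM of at least 5 gave 2485 of 6668. Leaving out 1 library gave 2861 to 3659 of 9812. The median log2 fold change of the 44 genes was 0.457 after rescaling, which also lowered the median of all genes tested to 0.0041. For the 44 it was 0.470 to 0.694 with 1 library left out (0.694 without LPS replicate 4) and 0.663 without both EXO replicate 2 and LPS replicate 4. The number of pairs with an exact permutation p under 0.05 was 8 with a pseudocount of 0.1. Wars2 turned to -0.000164 after rescaling. Fars2, which ran from -0.0754 to 0.000561 with 1 library left out, turned to the latter without EXO replicate 3. Neither was called, and the cause was not tested. The log2 difference of Vars to Vars2 turned from 0.133 to -0.133 with a pseudocount of 0.1. With no pseudocount the FPKM ratio of means was 7.19 in EXO and 8.04 in LPS libraries. The direction of this pair thus depended on the pseudocount. Lars, Wars1, Tars, Farsa and Sepsecs were not called with no filter (adjusted p 0.0769, 0.0866, 0.119, 0.0972 and 0.0595), nor were Tars, Farsa and Sepsecs after rescaling (0.0855, 0.0753 and 0.0585).

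Same-numbered libraries deviated with correlations of 0.0455, 0.17, -0.292 and -0.109, and differently numbered libraries with -0.163 to 0.352. With 4 libraries per group these values do not show whether the numbers pair the samples. With a replicate block 36 of the 44 genes were called higher, Eprs and Nars in addition (limma adjusted p 0.0411 and 0.0399). Over all genes tested that fit called 3253 of 9812 higher. Pair counts with 1 library left out were not run, since the smallest exact p is then 0.057. A filter does not change the value of a pair ratio, but it can change which pairs are kept. Fars2 (1.595 FPKM), Sars2 (3.872) and Hars2 (4.593) fall below a mean FPKM of 5, and each belongs to a pair among the 5. Pair counts under that filter were not run.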
